A study of Mus musculus with 10 samples.

Results

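The 10 genes described here are markers of resident macrophages and of their growth factor axis, measured in YUMMER1.7 melanomas grown in WT and Siah2 KO mice. They comprise 5 markers (*Lyve1*, *Cd163*, *Mrc1*, *F13a1*, *Siglec1*), the receptor *Cx3cr1* with its ligand *Cx3cl1*, and the receptor *Csf1r* with its ligands *Csf1* and *Il34*. The 10 genes, all present among the 770 gene probes of the panel, were chosen by name as a marker set, with the Siah2 KO and WT values of these same tumors already known. Their difference between the groups is the measure that was known, and it is therefore given as a description, without a test.

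YUMMER1.7 is a *Braf*-mutant mouse melanoma line that carries many added mutations. Its cells were injected under the skin of wild-type mice (WT, 5 tumors) or of Siah2-/- mice (Siah2 KO, 5 tumors), so that in the Siah2 KO group the host lacked Siah2, a ubiquitin ligase, while the injected cells did not. No other treatment was given. Mice of the growth experiment were males, 5 to 7 weeks old. The labels put collection at day 11 after injection, whereas the study's figure legend gives day 10. A description of the whole series names another cell line and mice lacking Rnf5, but the labels of all 10 tumors name YUMMER1.7 and Siah2. From each tumor 100 ng RNA was hybridized to a NanoString mouse immune panel, in which barcoded probes bound to mRNA are counted one by one. Siah2 has no probe among the 770, so the genotype could not be checked in these values. The whole tumor was measured, so fewer cells of a type and less RNA per cell cannot be told apart.

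Macrophages in a growing tumor come from cells that already lived in the tissue and from blood monocytes that enter and mature there. Both kinds depend on Csf1r, a receptor tyrosine kinase that keeps macrophages alive and lets them divide. Csf1 and Il34 are its only known ligands and differ in where they are made. Lyve1 binds hyaluronan, and Mrc1 (CD206) and Cd163 take up mannosylated glycoproteins and hemoglobin complexed to haptoglobin. F13a1 is the catalytic subunit of clotting factor XIII, and Siglec1 (CD169) binds sialic acid. These genes are used together to mark perivascular and connective tissue macrophages. Cx3cr1 is the receptor of fractalkine, Cx3cl1, and marks patrolling monocytes and several resident macrophage populations.

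Values are normalized counts, scaled by the authors to 20 reference genes in each tumor, and differences are Siah2 KO minus WT on the scale of log2(normalized counts + 1) with the standard error (SE) or the 95% confidence interval from a limma fit to all 770 probes. Counts before scaling summed to 443454 to 578705 for WT and 382860 to 581637 for Siah2 KO tumors. Over all 770 probes the median difference was 0.24, so that a gene at 0 lay below most of the panel. At an adjusted p under 0.05 (limma, Benjamini-Hochberg over 770 probes), 9.74% of probes (75) were lower and 31.3% (241) were higher in Siah2 KO tumors. When each tumor was scaled to the same median instead, 152 were lower and 163 higher. The groups did not overlap for 7.01% of probes with Siah2 KO lower, and for 24.5% with Siah2 KO higher. Among the 10 genes, 5 passed the threshold on the lower side (*Lyve1*, *Cd163*, *Mrc1*, *F13a1*, *Cx3cr1*) and 0 on the higher side, and for 4 of them (all but *Mrc1*) the groups did not overlap. These counts follow from how the genes were chosen, and nothing is read from them. The median difference of the 10 genes was −0.66, and 9 of the 10 values were negative. Under the median scaling 7 of the 10 passed on the lower side, with *Siglec1* and *Cx3cl1* added, beside 152 of all 770 probes on that side. Under quantile normalization 10 of the 10 did, beside 181 of the 770.

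**Figure D1:**
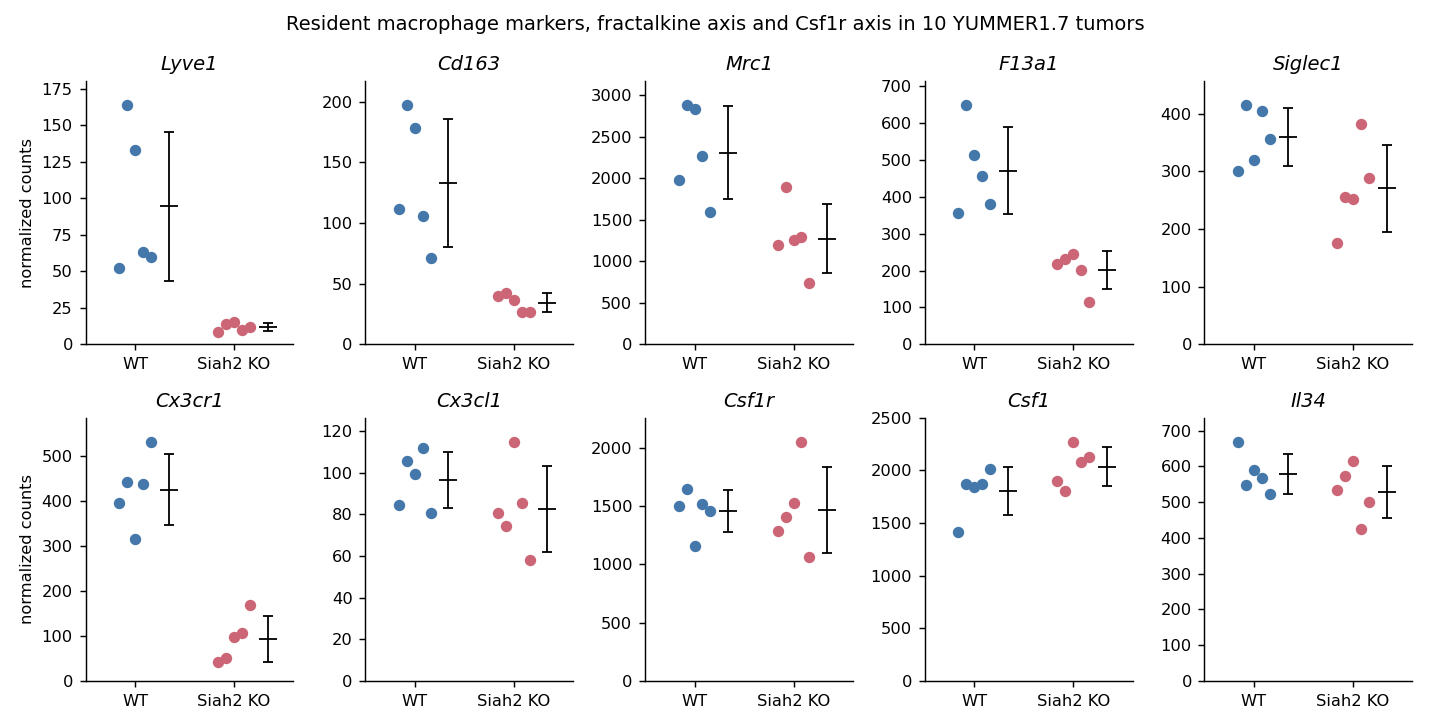
Normalized counts (y axis, linear, from 0) of the 10 genes in 5 WT and 5 Siah2 KO tumors. Each point is 1 tumor in the order of its replicate number, and the black mark and bar are the mean and SD. *Lyve1*, *Cd163*, *F13a1* and *Cx3cr1* do not overlap between the groups, while *Csf1r*, *Csf1* and *Il34* do.

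The sequences around the start sites of 4 of the 5 genes on the lower side are shown first, because the values of these genes are set against each other throughout. RefSeq promoter windows (GRCm38.p6, 250 bases before to 50 bases after the transcription start) were found for 6 of the 10 genes. Windows on the chromosome of *Csf1r* were left out, both here and in the share of mouse promoter windows given below. The 4 windows lie at chr2:14229164-14229463 on the plus strand for *Mrc1*, at chr13:37050195-37050494 on the minus strand for *F13a1*, at chr6:124304401-124304700 on the plus strand for *Cd163*, and at chr9:120068247-120068546 on the minus strand for *Cx3cr1*. For *F13a1* the window of the outermost of 2 annotated starts is given. Capitals mark the letters GAGGAA on either strand, the core bound by PU.1, the factor that directs macrophage development.
Mrc1: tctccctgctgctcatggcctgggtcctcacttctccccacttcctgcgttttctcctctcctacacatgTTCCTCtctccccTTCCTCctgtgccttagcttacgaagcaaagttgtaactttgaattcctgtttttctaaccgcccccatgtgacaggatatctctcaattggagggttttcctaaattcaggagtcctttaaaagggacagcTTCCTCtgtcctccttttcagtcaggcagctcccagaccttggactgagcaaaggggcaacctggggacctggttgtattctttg
F13a1: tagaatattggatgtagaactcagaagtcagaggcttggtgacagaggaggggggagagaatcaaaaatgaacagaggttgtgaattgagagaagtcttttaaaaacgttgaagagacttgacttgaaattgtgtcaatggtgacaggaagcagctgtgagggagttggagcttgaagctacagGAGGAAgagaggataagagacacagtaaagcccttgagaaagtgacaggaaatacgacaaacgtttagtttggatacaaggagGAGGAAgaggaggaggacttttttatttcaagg
Cd163: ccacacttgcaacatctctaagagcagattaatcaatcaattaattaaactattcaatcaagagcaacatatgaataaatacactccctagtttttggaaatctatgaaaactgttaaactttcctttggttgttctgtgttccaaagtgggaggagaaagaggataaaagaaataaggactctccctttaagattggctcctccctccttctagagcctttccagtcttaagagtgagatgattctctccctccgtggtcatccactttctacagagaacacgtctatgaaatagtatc
Cx3cr1: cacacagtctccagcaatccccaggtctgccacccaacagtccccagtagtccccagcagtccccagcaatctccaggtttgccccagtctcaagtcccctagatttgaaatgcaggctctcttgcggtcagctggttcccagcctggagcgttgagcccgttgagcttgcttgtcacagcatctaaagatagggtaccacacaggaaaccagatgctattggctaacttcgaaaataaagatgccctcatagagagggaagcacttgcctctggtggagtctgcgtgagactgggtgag
The *Mrc1* window held the core 3 times, each on the minus strand, and the *F13a1* window held it 2 times on the plus strand. The windows of *Cd163* and *Cx3cr1* held 0 matches. Among the windows not shown, that of *Cx3cl1* held 2 matches, that of *Csf1* held 0 and the other *F13a1* window held 1. Of 32851 mouse promoter windows of the same length, 28.3% held at least 1 match on either strand. A match is a description of the letters, and its absence says only that these letters are not in the 300 bases.

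Among the resident macrophage markers, the hyaluronan receptor *Lyve1* had the largest difference. It was at 52.1, 164, 133, 63.05 and 59.7 normalized counts in WT replicates 2 to 6 and at 8.66, 13.7, 15.1, 9.93 and 11.9 in Siah2 KO replicates 1, 2, 3, 5 and 6. Every Siah2 KO tumor was below every WT tumor, and WT replicates 3 and 4 were set apart from the other 3 WT tumors by higher values. The log2 difference was −2.76 (SE 0.33), the second most negative of all 770 probes, and the ratio of Siah2 KO to WT was 0.148 (95% confidence interval 0.0891 to 0.245). The Siah2 KO values lie near the background of the assay. Before scaling they were between 6.72 and 12.0 counts, and in 1 of the 5 Siah2 KO tumors *Lyve1* was below the highest of the 8 negative control probes. Its size therefore depends on how low values are treated, and with values under 20 raised to 20 the log2 difference was −2.03.

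*Cd163*, the hemoglobin scavenger receptor, was at 111, 197, 178, 105 and 71.2 normalized counts in WT replicates 2 to 6. In Siah2 KO replicates 1, 2, 3, 5 and 6 it was at 39.7, 42.5, 36.6, 26.2 and 26.3. The groups did not overlap, and WT replicates 3 and 4 were again the highest. The means were 133 ± 53.0 in WT and 34.3 ± 7.62 in Siah2 KO tumors (SD, n = 5 each), a log2 difference of −1.86 (SE 0.28) and a ratio of 0.276 (95% confidence interval 0.18 to 0.425). *F13a1*, the factor XIII subunit, was at 356, 649, 513, 458 and 381 normalized counts in WT replicates 2 to 6. It was at 217, 231, 244, 201 and 114 in the Siah2 KO replicates in the same order as above. No Siah2 KO tumor reached the lowest WT tumor, and KO replicate 6 was the lowest of all. The log2 difference was −1.24 (SE 0.23), a ratio of 0.424 (95% confidence interval 0.296 to 0.609).

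*Mrc1*, the mannose receptor CD206, was at 1975, 2884, 2834, 2267 and 1589 normalized counts in WT replicates 2 to 6. In the Siah2 KO replicates it was at 1190, 1891, 1255, 1292 and 737. Of the 5 Siah2 KO tumors, 4 were below every WT tumor, and KO replicate 2 lay above the lowest WT tumor, WT replicate 6. The log2 difference was −0.89 (SE 0.25), a ratio of 0.541 (95% confidence interval 0.368 to 0.796). In a fit blocked by replicate number, which leaves 8 tumors, 4 of the 10 genes passed, with *Mrc1* lost, and the same holds for those 8 tumors without a block. Over all 770 probes, 45 were lower with the block and 50 without it, in place of 75 in all 10 tumors. *Siglec1*, the sialic acid receptor, was at 300.1, 415, 321, 405 and 357 normalized counts in WT replicates 2 to 6 and at 175, 255, 251, 382 and 288 in the Siah2 KO replicates. KO replicate 5 lay within the WT values and the other 4 Siah2 KO tumors lay below them. Its log2 difference of −0.44 (95% confidence interval −0.87 to −0.02) was the smallest of the 5 markers and did not pass the threshold. Ordered by difference, the neighbouring intervals of *Cd163*, *F13a1*, *Mrc1* and *Siglec1* overlapped each other, whereas that of *Lyve1* lay apart from those of *F13a1*, *Mrc1* and *Siglec1*.

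The fractalkine receptor *Cx3cr1* was at 396, 442, 314, 437 and 531 normalized counts in WT replicates 2 to 6. In Siah2 KO replicates 1, 2, 3, 5 and 6 it was at 41.9, 50.5, 97.2, 106 and 167. All Siah2 KO tumors were far below the lowest WT tumor, and they differed among themselves by 3.99-fold from lowest to highest. The log2 difference was −2.34 (SE 0.35), a ratio of 0.198 (95% confidence interval 0.116 to 0.338). Its ligand *Cx3cl1*, a membrane-bound chemokine of endothelium and epithelium, was at 84.6, 106, 99.4, 112 and 80.9 normalized counts in WT and at 80.8, 74.5, 115, 85.3 and 58.3 in Siah2 KO replicates. The groups overlapped, and KO replicate 3 was the highest of all 10 tumors. The log2 difference of the ligand was −0.24 (95% confidence interval −0.63 to 0.14), an interval that holds 0.

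*Csf1r*, the receptor on which macrophages depend, was at 1497, 1649, 1157, 1520 and 1454 normalized counts in WT replicates 2 to 6. It was at 1282, 1406, 1524, 2052 and 1061 in the Siah2 KO replicates. The Siah2 KO group held both the highest and the lowest tumor. The means were 1456 ± 182 and 1465 ± 370.3 (SD, n = 5 each), and the log2 difference was −0.02 (95% confidence interval −0.40 to 0.37), which leaves room for a ratio between 0.759 and 1.29. *Csf1* was at 1410, 1870, 1840, 1866 and 2013 normalized counts in WT and at 1900, 1806, 2273, 2076 and 2129 in Siah2 KO replicates. WT replicate 2 lay below all other tumors, and 3 Siah2 KO tumors lay above all WT tumors. The log2 difference was 0.18 (95% confidence interval −0.07 to 0.44), and its sign turned, to −0.08 when each tumor was scaled to the same median and to −0.26 under quantile normalization. *Il34*, the ligand known from keratinocytes and neurons, was at 669, 547, 590.3, 569 and 523 normalized counts in WT and at 533, 574, 614, 424 and 501 in Siah2 KO replicates, with overlapping groups. Its log2 difference was −0.14 (95% confidence interval −0.40 to 0.12). Under quantile normalization the log2 differences of *Csf1r* and *Il34* were −0.42 and −0.52.

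Genes that macrophages of all kinds share, some of them with other myeloid cells, were mostly higher in Siah2 KO tumors. Of 8 general macrophage genes outside the 10, 6 rose in Siah2 KO tumors (limma, adjusted p between 0.0012 and 0.0048), 0 fell, and the median log2 difference was 0.74, beside 31.3% of all probes that rose. *Cybb*, the catalytic subunit of the phagocyte NADPH oxidase, had a log2 difference of 0.91 (SE 0.20), *Ctss*, a lysosomal protease, of 0.89 (SE 0.15), and *Cd68*, a lysosomal membrane protein of macrophages, of 0.87 (SE 0.14). *Cd68* was at 1269 ± 109 normalized counts in WT and 2351 ± 483 in Siah2 KO tumors (SD, n = 5 each), and no Siah2 KO tumor was as low as the highest WT tumor. *Itgam* (CD11b), an integrin of myeloid cells, was higher by 0.76 (SE 0.16). *Emr1*, which encodes F4/80, was at 1155 ± 126 in WT and 1408 ± 272 in Siah2 KO tumors (adjusted p = 0.14 from limma), and *Lyz2*, the macrophage lysozyme, was at 14214 ± 2463 and 16060 ± 4925 (adjusted p = 0.60 from limma; SD, n = 5 for each). Scaled to the positive control probes in place of the reference genes, 0 of the 8 passed the threshold, with a median of 0.58, while 95 of 770 probes passed in all. All 8 genes were above 150 normalized counts in every tumor, so macrophage genes were measured in both groups.

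**Figure D2:**
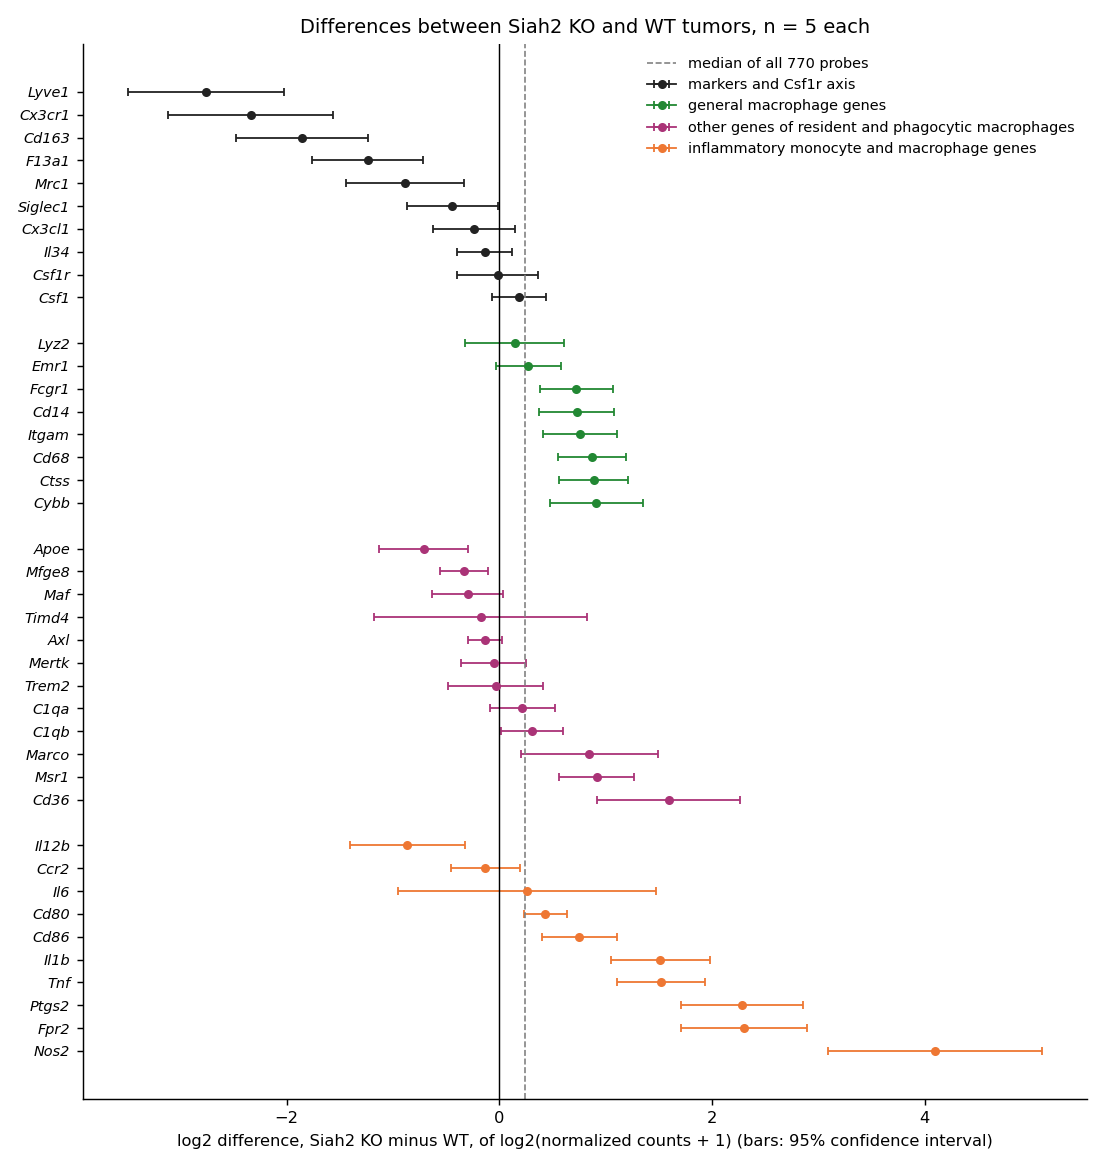
Log2 difference, Siah2 KO minus WT (x axis), with the 95% confidence interval from limma for each of the 10 genes and for 3 lists of macrophage genes, n = 5 tumors per group. The dashed line marks the median of all 770 probes, 0.24. *Lyve1*, *Cx3cr1*, *Cd163*, *F13a1* and *Mrc1* lie to the left of 0, and 6 of the 8 general macrophage genes lie to the right of it with their whole interval.

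Other genes of resident and phagocytic macrophages went both ways. Of 12, 3 rose and 2 fell at an adjusted p under 0.05 from limma, beside 31.3% and 9.74% of all probes, and the median log2 difference was −0.05. The 3 that rose are receptors that take up lipids and modified lipoproteins or bacteria. *Cd36* went from 57.7 ± 8.73 to 191 ± 94.1 normalized counts (SD, n = 5 each; log2 difference 1.59, SE 0.30, adjusted p = 0.0023 from limma), and *Msr1* had a log2 difference of 0.92 (SE 0.16, adjusted p = 0.0015). *Marco* was low, at 23.1 ± 7.95 in WT and 42.6 ± 14.9 in Siah2 KO tumors (SD, n = 5 each), with an adjusted p of 0.040 from limma, which was 0.060 with the replicate block and above 0.05 without any 1 of 8 of the tumors (all but KO replicate 2 and WT replicate 5). *Apoe*, the lipid carrier, was at 11258 ± 1531 in WT and 7011 ± 1843 in Siah2 KO tumors (SD, n = 5 each), a log2 difference of −0.71 (SE 0.19, adjusted p = 0.013 from limma). *Mfge8*, a bridge to dying cells, fell by 0.33 (SE 0.10, adjusted p = 0.024 from limma, and 0.097 with the replicate block). The receptors of dying cells *Mertk* and *Axl* had log2 differences of −0.06 (95% confidence interval −0.36 to 0.25) and −0.13 (−0.30 to 0.03), the complement genes *C1qa* and *C1qb* of 0.22 (−0.09 to 0.52) and 0.31 (0.01 to 0.60), and *Trem2* of −0.04 (−0.48 to 0.41). *Timd4*, a marker of some resident macrophages, was at 6.90 ± 3.76 and 6.12 ± 3.37 normalized counts in WT and Siah2 KO tumors (SD, n = 5 each), too low for a difference to be read. With the replicate number as a block 3 of the 12 passed (2 higher, 1 lower), and 3 also passed without KO replicate 1, without WT replicate 2 or without WT replicate 6. With positive control scaling 1 passed, and with median scaling 2 rose and 4 fell.

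Genes of inflammatory monocytes and macrophages were mostly higher in Siah2 KO tumors. Of 10, 7 rose and 1 fell, beside 31.3% and 9.74% of all probes, with a median log2 difference of 1.13. *Nos2*, the inducible nitric oxide synthase, led with 4.09 (SE 0.45), followed by *Fpr2*, a formyl peptide receptor, with 2.30 (SE 0.27) and *Ptgs2* with 2.28 (SE 0.26), each at an adjusted p of at most 0.00024 from limma. *Il12b* was the one that fell, from 46.1 ± 4.59 to 26.6 ± 12.7 normalized counts (SD, n = 5 each; adjusted p = 0.017 from limma). With the replicate block this call was lost (adjusted p = 0.068 from limma), and 6 of the 10 rose and 0 fell. *Ccr2*, the receptor that brings monocytes from the blood, was at 1308 ± 106 in WT and 1212 ± 264 in Siah2 KO tumors (SD, n = 5 each), a log2 difference of −0.13 (95% confidence interval −0.45 to 0.19). Of 9 other growth factor and receptor genes of blood cells, 1 passed the threshold, beside 316 of all 770 probes. This was *Csf3r*, the receptor of neutrophil growth factor, with a log2 difference of 0.95 (SE 0.20, adjusted p = 0.0044 from limma). *Csf2rb*, the shared chain for Csf2 and Il3, had a log2 difference of 0.23 (95% confidence interval −0.18 to 0.65), and *Flt3*, the dendritic cell growth factor receptor, of −0.53 (−1.11 to 0.05). With positive control scaling, 5 of the 10 inflammatory genes and 0 of the 9 growth factor genes passed.

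To set the 10 genes against the 8 general macrophage genes, the median of the log2 values of these 8 was subtracted tumor by tumor. This gives a quantity that no scaling of a whole tumor changes by more than the pseudocount does. That median was itself higher in Siah2 KO tumors by 0.77 (SE 0.15), though *Emr1* differed by 0.27 and *Lyz2* by 0.14, and neither passed the threshold. For Siah2 KO mice the paper reports fewer macrophages positive for CD206, the protein of *Mrc1*, in tumors of the parental line of YUMMER1.7. By single-cell RNA sequencing it reports a decrease in smaller macrophage clusters and no difference in the cluster with most macrophages. By flow cytometry of YUMMER1.7 tumors it reports a comparable number and proportion of macrophages in both genotypes. The median is therefore not taken as a measure of macrophage number. Relative to it, *Lyve1* was lower by a log2 difference of −3.53 (SE 0.43), *Cx3cr1* of −3.11 (SE 0.35), *Cd163* of −2.62 (SE 0.40), *F13a1* of −2.01 (SE 0.29), *Mrc1* of −1.65 (SE 0.33) and *Siglec1* of −1.21 (SE 0.15). *Csf1r* was lower by a log2 difference of −0.78 (SE 0.11) on this scale, with WT tumors between 0.14 and 0.56 and Siah2 KO tumors between −0.74 and −0.25. For all 10 genes the 5 Siah2 KO tumors were below the 5 WT tumors on this scale, the ligands included. The subtracted median was higher in Siah2 KO tumors, so a gene without a difference also moves down on this scale. The log2 difference of *Csf1* went from 0.18 as normalized to −0.58. How many of all probes separate in this way was not counted, so nothing is read from the full separation. Subtraction moves every difference by the same amount, so the order of the genes stays as it was and the spread and the overlap are what can change. Relative to 8 leukocyte genes, whose median was higher by 0.42 (SE 0.13), the log2 difference was −3.17 for *Lyve1*, −2.75 for *Cx3cr1*, −0.43 for *Csf1r* and −0.23 (SE 0.15) for *Csf1*. On that scale 8 of the 10 genes did not overlap between the groups, while 4 of 5 Siah2 KO tumors were below all WT tumors for *Cx3cl1* and 1 of 5 for *Csf1*. These counts were not set against all probes either.

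**Figure D3:**
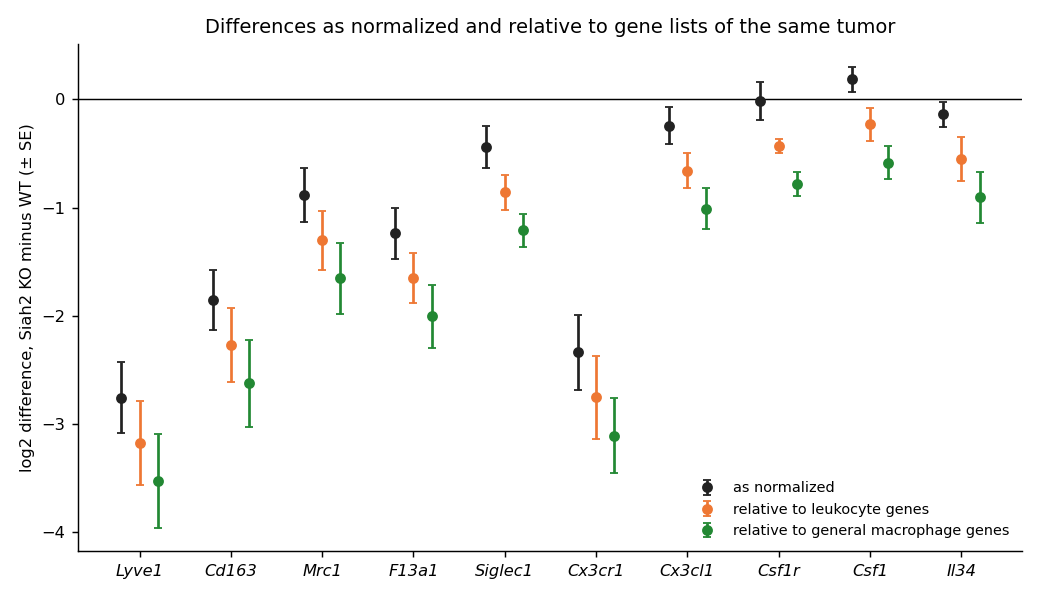
Log2 difference, Siah2 KO minus WT (y axis), of the 10 genes as normalized and relative to the median of 8 leukocyte or 8 general macrophage genes of the same tumor. Bars are 1 SE (from limma for the values as normalized, from the 2 groups' variances otherwise), n = 5 per group. All differences move down, and *Csf1r* goes from −0.02 to −0.43 and −0.78.

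Within a group, where the genotype does not vary, the markers shared part of their spread. WT replicates 3 and 4 were the highest 2 of the 5 WT tumors for each of *Lyve1*, *Cd163*, *Mrc1* and *F13a1*. The WT tumors spanned 3.15-fold for *Lyve1*, 2.77-fold for *Cd163*, 1.82-fold for *Mrc1* and 1.83-fold for *F13a1*. Over the 10 tumors after subtracting each group's mean log2 value, Pearson's r was 0.85 between *Mrc1* and *F13a1*, 0.77 between *Cd163* and *Mrc1*, 0.76 between *Lyve1* and *Cd163* and 0.72 between *Cd163* and *F13a1*. It was 0.58 between *Lyve1* and *F13a1* and 0.54 between *Lyve1* and *Mrc1*. The ligand *Cx3cl1*, which is no macrophage marker, had r of 0.77 to *F13a1* and 0.53 to *Mrc1*. *Cx3cr1* did not go with them, with r of −0.66 to *Mrc1*, −0.58 to *Cd163* and −0.03 to *Lyve1*. KO replicate 6 had the lowest *Mrc1* and *F13a1* and the highest *Cx3cr1* of the Siah2 KO tumors. *Siglec1* was nearer to *Cx3cr1* (r = 0.65) than to *Mrc1* (r = 0.02), and *Csf1r* had r of 0.31 to *Mrc1* and 0.07 to *Cx3cr1*. These values rest on 10 tumors that share the scaling to reference genes, and they are given as a description. Those of *Lyve1* also rest on Siah2 KO values near the background, between 8.66 and 15.1 normalized counts.

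**Figure D4:**
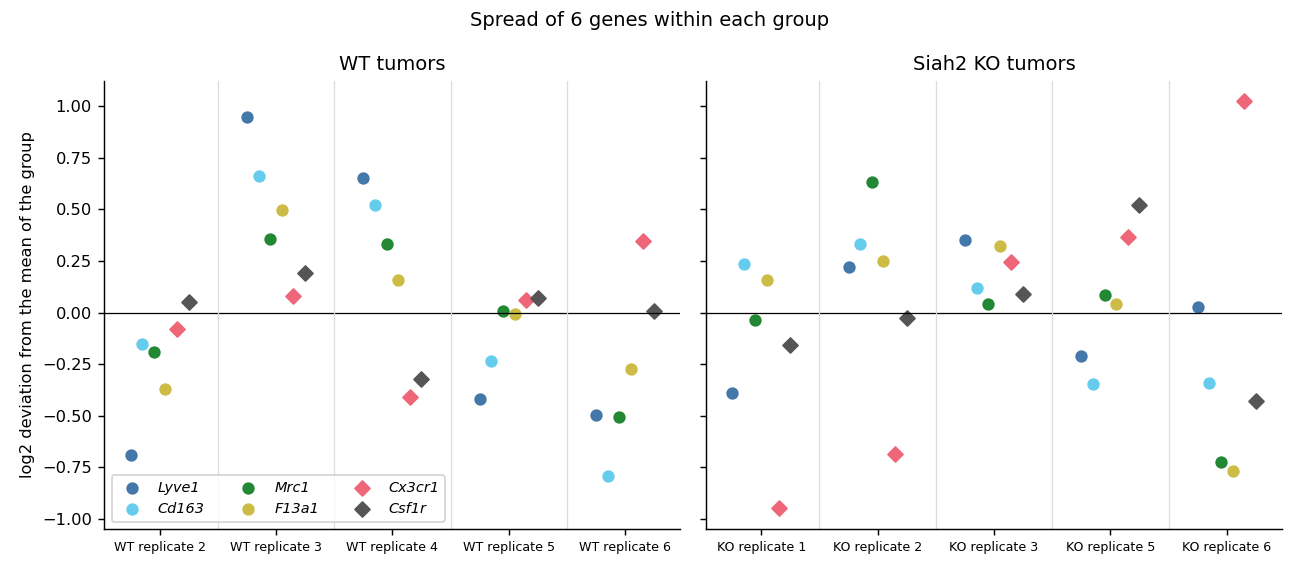
Deviation of log2(normalized counts + 1) from the mean of the group (y axis) for 6 genes in each of 5 WT and 5 Siah2 KO tumors (x axis). Circles are resident macrophage markers and diamonds are *Cx3cr1* and *Csf1r*. The 4 markers lie above 0 in WT replicates 3 and 4, and in KO replicate 6 *Cx3cr1* lies at the top while *Mrc1* and *F13a1* lie at the bottom.

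The genes most like a given one were sought among 581 other endogenous genes whose mean reached 20, by the same r over 10 tumors. For *Lyve1*, which was near the background in Siah2 KO tumors, they were *Il2ra* (r = 0.79), *Cd163* (r = 0.76) and *Tmed1* (r = 0.76). For *Mrc1* they were *Il1r1* (r = 0.94), *Ccl6* (r = 0.90) and *Ccl24* (r = 0.88), and for *Cx3cr1* they were *Tgfbr1* (r = 0.96), *Xcl1* (r = 0.91) and *Sh2d1b1* (r = 0.82). For *Csf1r* they were *Ly96* (r = 0.97), *Ctss* (r = 0.96) and *Hcst* (r = 0.94), against a median r of 0.45 over the 581 genes, which was 0.01 for *Lyve1*, 0.13 for *Mrc1* and 0.06 for *Cx3cr1*. *Ctss*, which went with *Csf1r* from tumor to tumor, rose between the groups, while the interval of *Csf1r* held 0.

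Several of the 10 genes are also made by other cells, whose genes are given beside them. *Lyve1* marks lymphatic vessels as well. The list of lymphatic vessel genes held 2. *Vegfc*, a growth factor that acts on lymphatic endothelium and does not mark it, had a log2 difference of −0.47 (SE 0.16, adjusted p = 0.044 from limma). *Ccl21a* was at 53.1 ± 33.6 and 37.8 ± 22.1 normalized counts in WT and Siah2 KO tumors (SD, n = 5 each). The call of *Vegfc* was lost under the methods' equal-variance test, with values under 20 raised to 20, with positive control scaling, and without any 1 of KO replicates 2, 3 and 6 and WT replicates 3 to 6 (adjusted p up to 0.099 from limma without a tumor). The sum of both genes ran from 164 to 249 in WT and from 107 to 181 in Siah2 KO tumors. Most of it was *Vegfc*, with means of 155 in WT and 112 in Siah2 KO tumors, so the sum is not taken as a measure of lymphatic vessels. Of 7 genes of blood endothelium, 1 rose and 2 fell, and their sum ran from 1266 to 1387 in WT and from 1157 to 1340 in Siah2 KO tumors. *Pecam1*, which leukocytes carry too, rose by 0.88 (SE 0.11), and the endothelial genes *Vwf* and *Cdh5* fell by 0.79 (SE 0.20) and by 0.45 (SE 0.10). Of 5 fibroblast genes 4 fell, led by *Fap* with a log2 difference of −1.97 (SE 0.19) and *Pdgfrb* with 109 ± 12.9 and 54.0 ± 4.92 normalized counts in WT and Siah2 KO tumors (SD, n = 5 each), and *Cxcl12* rose by 0.87 (SE 0.19). The fibroblast genes ran from 16719 to 21517 in sum in WT and from 10674 to 12914 in Siah2 KO tumors. *F13a1* is also a platelet gene, and the platelet genes *Itga2b* and *Ppbp* were under 9 normalized counts on average in both groups, with *Itgb3*, an integrin of many cells, higher by 0.69 (SE 0.14). The sum of the 3 platelet genes ran from 90.7 to 143 in WT and from 150 to 210 in Siah2 KO tumors.

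*Cx3cr1* is also carried by NK cells and effector T cells. Of 8 T and NK cell genes 7 rose, with *Klrb1c* and *Cd8a* higher by 1.17 (SE 0.24) and 1.13 (SE 0.21), and the sum of the list ran from 889 to 1262 in WT and from 1442 to 2240 in Siah2 KO tumors. Of the epidermis and Langerhans cell genes, *Epcam* and *Cd207* were at 6.01 normalized counts or less on average in both groups, and *Cdh1* fell from 47.3 ± 12.7 to 28.8 ± 9.63 (SD, n = 5 each; adjusted p = 0.035 from limma). The call of *Cdh1* was lost with the replicate block (adjusted p = 0.16 from limma), under the methods' equal-variance test, with positive control scaling, and without any 1 of KO replicates 1, 5 and 6 and WT replicates 3 to 5. The sum of the 3 ran from 37.8 to 78.1 and from 24.8 to 62.0 in the 2 groups, WT first. Of 4 dendritic cell genes, *Itgax* rose by 0.86 (SE 0.18; adjusted p = 0.0038 from limma, and 0.051 with the replicate block), and *Xcr1* and *Lamp3* were under 15 on average, with sums of the 4 from 235 to 308 in WT and from 209 to 345 in Siah2 KO tumors. Of 8 leukocyte genes 6 rose and 0 fell, and their sum ran from 4171 to 5061 in WT and from 6212 to 9288 in Siah2 KO tumors. Over the 40 genes of these 8 lists 17 rose and 8 fell, beside 31.3% and 9.74% of all 770 probes. With positive control scaling 3 of the 40 rose and 3 fell, beside 60 and 35 of the 770. Scaled to the same median, 6 of the 7 blood endothelium genes fell and 4 of the 8 leukocyte genes rose. The part of these cells in the values of the 10 genes was not tested.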

How the data were processed

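Gene expression in 10 YUMMER1.7 tumors, 5 of WT and 5 of Siah2 KO mice, was measured with a NanoString nCounter panel. The authors deposited the signal of each of 784 probes (750 endogenous genes, 20 reference genes, 6 positive and 8 negative controls) in normalized counts. Their methods name nSolver 2.0, removal of samples whose positive control factor was an outlier, and scaling by the geometric mean over the panel's control genes. In the values themselves, a constant background had been subtracted per tumor and low results set to a floor of 1. In each tumor 100% of values between the floor and 150 lay within 0.1 of a whole step of 1 factor, allowing for the remainder of that constant. Whole raw counts could not be recovered. The number of tumors limits the precision, and intervals cover the spread between tumors. Groups came from the sample titles. The labels give no cage, litter or batch and do not say that each tumor is from another mouse. The p-values set the difference of the groups against the spread between these tumors. They take the tumors as independent, which could not be checked.

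From these values log2(value + 1) was computed and compared, Siah2 KO minus WT, over 770 probes with lmFit and eBayes of limma 3.58.1 (R 4.3.3), two-sided, with Benjamini-Hochberg adjustment. The 10 genes, the other lists and the rule for naming genes were chosen with earlier results of these data known. Of the lists of macrophage and growth factor genes, up to 4 genes in each direction with an adjusted p under 0.05 and a mean of at least 20 are named, together with genes that did not pass, and of the 8 lists of other cells up to 2 in each direction, with low genes given for their level. Correlations are of log2 values less the group mean. The steps were tested on simulated data. Replicate numbers 2, 3, 5 and 6 occur in both groups, and the labels do not say that they pair the tumors. The deviations of same-numbered tumors from their group means correlated by 0.13, 0.21, 0.18 and 0.44 over 602 probes. Tumors of different numbers were not compared in this way, so these values do not show a pairing. The block by replicate number is therefore given only as an alternative. The alternatives were 3 scalings, 3 treatments of low values, the methods' t-test, the replicate block and leaving out each tumor. No 2 tumors had the same values. Promoter windows are RefSeq's (GRCm38.p6). Tables and plots used Python 3.11.15 with matplotlib 3.10.9.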

Additional observations from a re-analysis of the deposited data

Results flagged for a closer look

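In WT tumors *Csf1* was at 1410 normalized counts in replicate 2 and at 1840 or more in the other 4 WT tumors. The gap of replicate 2 to its nearest neighbour was 0.713 of the range of the group, just above Dixon's critical value of 0.71 for 5 samples. Both groups were looked at for each of the 10 genes, 20 groups in all, and chance passes this limit in about 1 in 20.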

How the results depend on the processing

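Of the 10 genes, 5 passed the threshold in the values as deposited, 10 under quantile normalization, where 181 of all 770 probes were called lower in place of 75, and 5 or 6 when any 1 tumor was left out, with *Siglec1* added without KO replicate 5. Their median log2 difference of −0.66 was −0.93 under median scaling, −1.01 under quantile normalization, and between −0.74 and −0.59 when 1 tumor was left out. Median scaling lowered the median over all probes by a log2 difference of −0.25 and positive control scaling by −0.16. Positive control scaling left 0 general macrophage genes (6 as deposited), 1 other gene of resident and phagocytic macrophages (5 as deposited), 5 inflammatory genes (8), 0 growth factor genes (1) and 6 genes of other cell types (25), among 95 of 770 probes in place of 316. The growth factor list had 3 calls with probes under a mean of 20 left out, 2 under median scaling, 2 with a pseudocount of 10, 2 under quantile normalization, and 1 to 2 when 1 tumor was left out, with 2 without KO replicate 2 or 6 or WT replicate 3 or 6. The list of resident and phagocytic macrophage genes had 3 calls with the replicate block, 3 in those 8 tumors with no block (a setting added once the data had been seen), and 3 to 5 when 1 tumor was left out, with 3 without KO replicate 1, WT replicate 2 or WT replicate 6. *Mrc1* was lost from the 10 genes in these 8 tumors both with the replicate block and without it. Over all probes there were 235 calls with the block and 232 without it. Set against all 10 tumors, the blocked fit of the 8 lost the list calls of *Marco*, *Mfge8*, *Il12b*, *Cd80*, *Col1a1*, *Cd3e*, *Spn*, *Cd48*, *Itgax* and *Cdh1* and added *Ikzf1*. This left 0 calls among 4 dendritic cell genes and 0 among 3 genes of epidermis and Langerhans cells (1 each as deposited). Without the block the 8 tumors gave 1 and 0. The counts of the general macrophage, inflammatory and growth factor lists and of the 40 genes of other cells together moved by less than 1.5 times. The causes of these changes were not tested. No difference of the 10 genes that had passed changed sign under an alternative, and of those that had not, *Csf1* did under median scaling and quantile normalization and *Csf1r*, near 0, did when 1 tumor was left out (log2 difference between −0.15 and 0.09). A test on whole counts was not run, because the subtracted background left fractions from which whole counts could not be recovered. Values near the background, such as *Lyve1* in Siah2 KO tumors, limit the size of a difference more than its direction: the log2 difference of *Lyve1* was −2.03 with values under 20 raised to 20 and −2.13 with a pseudocount of 10.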
